A study of Mus musculus with 21 samples.

Results

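The genes described here are 10 regulators of the meiotic cell cycle and the spindle checkpoint, followed through RNA sequencing of oocytes and granulosa cells of mice that were young, aged, or aged and given human umbilical cord mesenchymal stem cells (UC-MSCs). They are Mos, Ccnb1, Cdk1, Wee2, Cdc25b, Cdc20, Bub1b, Mad2l1, Aurkc and Fbxo43. The rule took them by name and used no values, but earlier results of these data were known when it was made. All 10 were found among 55335 gene identifiers in each of 21 libraries. The Young group came from female ICR mice of 6 to 8 weeks and the Aged group from ICR mice of 18 months. The groups Aged + Unsorted, Aged + LRP1high and Aged + LRP1low came from aged mice of the same kind that had received UC-MSCs under the ovarian capsule. The study assessed fertility 3 weeks after transplantation, and its methods do not state the time at which cells were taken for RNA. The LRP1high and LRP1low cells were the upper and lower ends of the LRP1-positive cells in flow sorting, kept overnight in culture before the transplantation. Oocytes and granulosa cells were released by scraping the ovary with a needle, parted with hyaluronidase, and the oocytes were freed of the zona pellucida with pronase. The oocyte groups held 3 Young, 2 Aged, 2 Aged + Unsorted, 3 Aged + LRP1high and 2 Aged + LRP1low libraries, and the granulosa cell groups held 1, 2, 1, 3 and 2. Replicates are numbered as biological replicates in the labels, but neither the animals and cells pooled in a library nor the meiotic stage of the oocytes is given in the sources used here. All p-values therefore measure the spread between these libraries.

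As background, a full-grown oocyte rests at the first meiotic prophase until M-phase promoting factor, the complex of the kinase Cdk1 and cyclin B1 (Ccnb1), becomes active. Wee2 is the oocyte form of the kinase that puts an inhibitory phosphate on Cdk1, and the phosphatase Cdc25b removes it. After the first division the oocyte stops at the second metaphase under cytostatic factor, in which the kinase Mos keeps MAP kinase active and Fbxo43 (Emi2) inhibits the anaphase-promoting complex (APC/C). Cdc20 is the activator of the APC/C at the exit from metaphase, and Mad2l1 and Bub1b (BubR1) are the spindle checkpoint proteins that hold Cdc20 back while chromosomes lack attachment. Aurkc is the Aurora kinase of the chromosomal passenger complex that germ cells use. The mRNAs of several of these genes, Mos and Ccnb1 among them, are stored in the growing oocyte and translated during maturation.

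Values are FPKM, fragments per kilobase of gene scaled to the total of mapped fragments in the library, so that levels of different genes can be compared per length. The depth of a library, taken from the ratio of coverage to FPKM at genes with 1 transcript and 1 exon, was 0.278 to 3.40 aligned gigabases in oocyte libraries and 0.335 to 1.49 in granulosa cell libraries. Markers were set against the labels before the members were compared. The median FPKM of 10 oocyte markers (Gdf9 and Bmp15, growth factors the oocyte secretes; Zp1, Zp2 and Zp3 of the zona pellucida; and the maternal genes Ooep, Nlrp5, Dppa3, H1f8 and Oosp1) was 84.9 to 1001 in 8 oocyte libraries. It was 0.892 in Young replicate 1, 11.6 in Aged replicate 1, 5.02 in Aged + LRP1low replicate 1 and 7.77 in Aged + LRP1low replicate 2, all labelled as oocytes. In the granulosa cell libraries it was at most 4.36, except for 799.7 in the only Aged + Unsorted library. By oocyte markers these 5 libraries go against their labels, and each result that rests on them is given with and without them where the design allows. Granulosa cell markers took no part in this choice. The median FPKM of 10 such markers was 92.6 in granulosa cell Young and 26.5 in Aged + LRP1high replicate 3. In the other granulosa cell libraries it was 0.0482 to 1.27, so these hardly show the markers of their own label. A gene that should be silent shows how far signal spreads: the 95th percentile of 1465 olfactory and vomeronasal receptor genes was an FPKM of 0.0535 to 5.34 in the 8 oocyte libraries with markers and 1.24 to 10.5 in the 4 without. In bulk samples, fewer cells of a type and less RNA per cell cannot be told apart.

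The promoters of 8 of the 10 genes, all but Mos and Fbxo43, were matched by symbol to RefSeq sequences of GRCm38.p6, from 250 bases before the start site to 50 after it. Those of Ccnb1 (chr13:100786437-100786736, minus strand), Cdk1 (chr10:69352863-69353162, minus strand), Cdc20 (chr4:118437294-118437593, minus strand) and Wee2 (chr6:40442613-40442912, plus strand) are shown, because the first 3 genes serve every dividing cell and the fourth the oocyte. The window of Wee2 lies inside the span of that gene (chr6:40439088-40466813), so its RefSeq start site is not the first base of the gene. Capitals mark CCAAT, the letters that the factor NF-Y binds, and TTTGAA or TTTAAA, the letters of the cell cycle genes homology region found in many genes of late cell cycle, on either strand.
Ccnb1: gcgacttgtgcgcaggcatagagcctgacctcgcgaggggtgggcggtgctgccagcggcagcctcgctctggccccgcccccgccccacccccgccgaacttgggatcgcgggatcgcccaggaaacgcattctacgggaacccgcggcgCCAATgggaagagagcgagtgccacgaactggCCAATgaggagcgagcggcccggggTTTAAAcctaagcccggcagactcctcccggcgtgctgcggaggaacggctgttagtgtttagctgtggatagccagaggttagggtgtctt
Cdk1: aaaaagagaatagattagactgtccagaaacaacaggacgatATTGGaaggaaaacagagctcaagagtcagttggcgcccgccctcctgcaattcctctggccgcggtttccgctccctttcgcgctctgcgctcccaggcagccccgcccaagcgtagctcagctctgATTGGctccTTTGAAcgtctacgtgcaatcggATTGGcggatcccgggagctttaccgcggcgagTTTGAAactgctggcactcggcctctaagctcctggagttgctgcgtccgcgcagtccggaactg
Cdc20: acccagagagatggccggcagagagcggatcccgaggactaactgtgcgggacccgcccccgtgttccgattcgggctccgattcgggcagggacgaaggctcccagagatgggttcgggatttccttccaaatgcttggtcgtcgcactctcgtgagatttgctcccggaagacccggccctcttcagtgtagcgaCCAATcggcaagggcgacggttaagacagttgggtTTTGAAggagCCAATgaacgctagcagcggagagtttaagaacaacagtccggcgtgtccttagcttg
Wee2: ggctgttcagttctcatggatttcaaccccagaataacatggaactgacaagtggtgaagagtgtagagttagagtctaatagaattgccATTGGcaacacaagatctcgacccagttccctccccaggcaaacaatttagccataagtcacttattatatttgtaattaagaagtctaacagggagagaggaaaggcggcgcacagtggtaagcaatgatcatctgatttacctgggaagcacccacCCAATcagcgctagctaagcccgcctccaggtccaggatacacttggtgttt
CCAAT stood in 7 of the 8 promoters, all but that of Mad2l1, against 37.4% of 32851 mouse promoters of the same length. TTTGAA or TTTAAA stood in 4 of the 8, in Ccnb1 from base -42, in Cdk1 from bases -71 and -15, in Cdc20 from base -18 and in Bub1b from base 41, against 27.6% of all promoters. The promoters of Wee2, Cdc25b, Mad2l1 and Aurkc held neither of these letters. TATAAA stood in none of the 8 and in 13.6% of all promoters, and CANNTG, the E-box, in 6 of the 8 and in 72.3%. No match overlapped another, and a match is a description of letters, not of a bound factor.

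**Figure D1:**
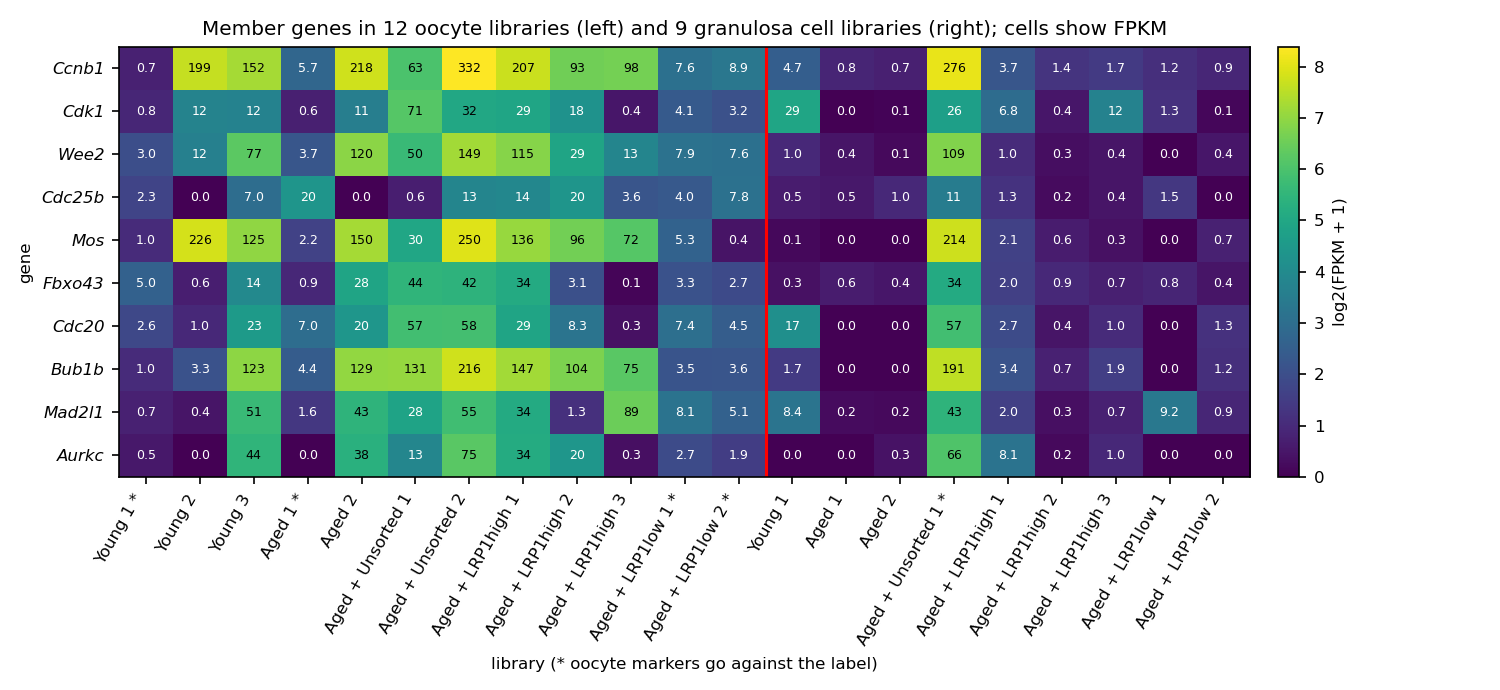
FPKM of the 10 genes (rows) in 12 oocyte libraries (left of the red line) and 9 granulosa cell libraries (right), coloured by log2(FPKM + 1) and with the FPKM written in each cell. Asterisks mark the 5 libraries whose oocyte markers go against the label. In these, the 4 oocyte columns are dark apart from Cdc25b in Aged replicate 1, and the granulosa column of Aged + Unsorted is as bright as the oocyte column of Aged + Unsorted replicate 2.

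Cyclin B1 mRNA was the most abundant of the set, and its kinase partner was much lower. Ccnb1 (ENSMUSG00000041431.16, chr13:100778650-100786570, minus strand) had an FPKM of 0.720, 199 and 152 in the 3 Young oocyte libraries, 5.73 and 218 in Aged, 63.0 and 332 in Aged + Unsorted, 207, 92.9 and 98.0 in Aged + LRP1high, and 7.58 and 8.90 in Aged + LRP1low. The 4 libraries low in oocyte markers all lay under 9, and the other 8 lay at 63.0 or above. In granulosa cells Ccnb1 was 4.66 in Young, 0.811 and 0.659 in Aged, 276 in Aged + Unsorted, 3.71, 1.41 and 1.69 in Aged + LRP1high, and 1.18 and 0.872 in Aged + LRP1low. Cdk1 (ENSMUSG00000019942.13, chr10:69335146-69352938, minus strand) had an FPKM of 0.848, 12.4 and 12.2 in Young oocytes, 0.649 and 10.99 in Aged, 71.0 and 31.5 in Aged + Unsorted, 29.5, 18.3 and 0.424 in Aged + LRP1high, and 4.12 and 3.23 in Aged + LRP1low. Both Aged + Unsorted libraries were above every other oocyte library. In granulosa cells Cdk1 reached 29.4 in Young and 12.1 in Aged + LRP1high replicate 3, levels within the oocyte range, and was 25.6 in Aged + Unsorted, 6.76 and 0.409 in the other Aged + LRP1high libraries, 1.31 and 0.118 in Aged + LRP1low, and 0 and 0.0638 in Aged. Within a library, Ccnb1 exceeded Cdk1 in 7 of the 8 oocyte libraries with markers, with a median ratio of 11.5. The exception was Aged + Unsorted replicate 1, with a ratio of 0.888, and the highest ratio, 231, was that of Aged + LRP1high replicate 3, in which Cdk1 was 0.424.

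The inhibitor of Cdk1 was higher than its activator in each of the 8 oocyte libraries with markers. Wee2 (ENSMUSG00000037159.11, chr6:40439088-40466813, plus strand) had an FPKM of 3.05, 11.6 and 76.9 in Young oocytes, 3.74 and 120.2 in Aged, 49.9 and 149 in Aged + Unsorted, 115, 29.0 and 12.999 in Aged + LRP1high, and 7.87 and 7.56 in Aged + LRP1low. In granulosa cells it was 109 in Aged + Unsorted and at most 1.05 in the other 8 libraries, the lowest ceiling of the 10 genes there. Cdc25b (ENSMUSG00000027330.16, chr2:131186949-131198497, plus strand) had an FPKM of 2.29, 0 and 7.05 in Young oocytes, 19.6 and 0 in Aged, 0.622 and 13.2 in Aged + Unsorted, 13.9, 19.8 and 3.59 in Aged + LRP1high, and 4.04 and 7.78 in Aged + LRP1low. Its levels did not follow the oocyte markers: it was listed at 0 in 2 libraries rich in them, and at 19.6 in Aged replicate 1, which was poor in them. Cdc25b overlaps Spef1 on the other strand, and Spef1 had an FPKM of 9.03 in that same library and at most 0.0713 in the 8 libraries with markers. Without stated strand use in counting, reads of the 2 genes cannot be told apart. In granulosa cells Cdc25b was 10.5 in Aged + Unsorted and at most 1.55 elsewhere. The ratio of Wee2 to Cdc25b was 1.46 to 80.2 in the 6 oocyte libraries with markers in which Cdc25b was above 0.

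Of the 2 cytostatic factor genes, Mos was close to Ccnb1 and Fbxo43 was lower. Mos (ENSMUSG00000078365.5, chr4:3870657-3872105, minus strand, a gene of 1 exon) had an FPKM of 1.04, 226 and 125 in Young oocytes, 2.17 and 150.2 in Aged, 29.9 and 250.3 in Aged + Unsorted, 136, 96.1 and 71.7 in Aged + LRP1high, and 5.27 and 0.373 in Aged + LRP1low. The libraries with markers all lay at 29.9 or above and those without at 5.27 or below. In granulosa cells Mos was 214 in Aged + Unsorted, at most 2.09 in the other 8 libraries and listed at 0 in 3 of them, both Aged libraries included. In none of those 8 did Mos pass the 95th percentile of the silent receptor genes. The ratio of Mos to Ccnb1 varied little among the 8 oocyte libraries with markers, from 0.474 to 1.14, while Ccnb1 alone ran from 63.0 to 332 and Mos from 29.9 to 250.3. Fbxo43 (ENSMUSG00000048230.6, chr15:36150060-36164884, minus strand) had an FPKM of 5.01, 0.631 and 14.4 in Young oocytes, 0.921 and 28.5 in Aged, 43.5 and 42.0 in Aged + Unsorted, 33.8, 3.09 and 0.0907 in Aged + LRP1high, and 3.35 and 2.70 in Aged + LRP1low. Both Aged + Unsorted libraries again stood highest, and 3 of the 8 libraries with markers lay under 10. In granulosa cells it was 33.8 in Aged + Unsorted and 0.295 to 2.03 in the others.

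Among the genes of the APC/C and the checkpoint, Bub1b was the most abundant. Bub1b (ENSMUSG00000040084.9, chr2:118598211-118641591, plus strand) had an FPKM of 1.04, 3.33 and 123 in Young oocytes, 4.38 and 129 in Aged, 131 and 216 in Aged + Unsorted, 147, 104 and 74.7 in Aged + LRP1high, and 3.53 and 3.58 in Aged + LRP1low. Every Aged + LRP1high and Aged + Unsorted library was above 70, and of the 5 libraries under 5, Young replicate 2 was the only one rich in oocyte markers. Cdc20 (ENSMUSG00000006398.15, chr4:118432901-118437352, minus strand) had an FPKM of 2.56, 0.959 and 22.7 in Young oocytes, 7.03 and 20.02 in Aged, 56.9 and 58.1 in Aged + Unsorted, 29.0, 8.32 and 0.303 in Aged + LRP1high, and 7.36 and 4.55 in Aged + LRP1low. It overlaps Elovl1 on the other strand, which had an FPKM of at most 10.04 in any oocyte library. Mad2l1 (ENSMUSG00000029910.14, chr6:66535390-66547220, plus strand) had an FPKM of 0.693, 0.386 and 50.6 in Young oocytes, 1.59 and 43.1 in Aged, 28.1 and 54.9 in Aged + Unsorted, 34.1, 1.26 and 89.0 in Aged + LRP1high, and 8.09 and 5.08 in Aged + LRP1low. The 3 Aged + LRP1high libraries ordered these genes differently: replicate 3 held the highest Mad2l1 and the lowest Cdc20 and Cdk1 of all oocyte libraries, and replicate 2 had little Mad2l1 beside 104 of Bub1b. Bub1b exceeded Cdc20 in 8 of 8 libraries with markers, by 2.30 to 246 times, and in 0 of the 4 without. In those 4, Bub1b passed the 95th percentile of the silent receptor genes in 0 and Cdc20 in 2. Their order there is thus one of values near the background. In granulosa cells Cdc20 was 16.9 in Young, Mad2l1 8.35 in Young and 9.17 in Aged + LRP1low replicate 1, and Bub1b at most 3.40 outside Aged + Unsorted, in which they were 56.6, 42.7 and 191.

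Aurkc (ENSMUSG00000070837.5, chr7:6995300-7003091, plus strand) had an FPKM of 0.452, 0 and 43.9 in Young oocytes, 0 and 38.5 in Aged, 13.3 and 75.1 in Aged + Unsorted, 34.5, 20.3 and 0.279 in Aged + LRP1high, and 2.73 and 1.89 in Aged + LRP1low. It was thus at 13.3 or above in 6 of the 8 libraries with markers and under 0.3 in the other 2. In granulosa cells it was 66.0 in Aged + Unsorted, 8.08 in Aged + LRP1high replicate 1, under 1 in the rest and listed at 0 in 4 of them. Its relatives Aurka and Aurkb are kinases of the spindle poles and of the passenger complex. In the 8 oocyte libraries with markers Aurka had an FPKM of 4.93 to 102, above Aurkc in every one of them, and Aurkb of 0 to 7.94. Ccnb2, another B-type cyclin, had an FPKM of 3.71 to 212 in those libraries. Wee1, the counterpart of Wee2 outside the oocyte, had an FPKM of 0.0524 to 9.02 in those libraries, under Wee2 in every one of them. The pseudogene Ccnb1-ps, which can share reads with Ccnb1, was at most 4.16 in them.

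Across the 8 oocyte libraries with markers, the median FPKM put the genes in the order Ccnb1 (176), Mos (131), Bub1b (126), Wee2 (63.4), Mad2l1 (38.6), Aurkc (27.4), Fbxo43 (21.4), Cdc20 (21.4), Cdk1 (15.4) and Cdc25b (5.32). Neighbours in this order overlapped in level: in no pair was the first gene above the next in all 8 libraries, and Mos was above Bub1b in 4 of them. The spread differed more than the order. The SD of log2(FPKM + 1) was 0.79 for Ccnb1 and 0.97 for Mos, and between 1.41 (Wee2) and 2.38 (Aurkc) for the other 8 genes. Young replicate 2 and Aged + LRP1high replicate 3, in which 3135 and 4525 genes had an FPKM of at least 1 against 8071 to 11916 in the other 6, held many of the low values. In Young replicate 2, Ccnb1 and Mos were near 200 while 6 of the 10 genes were under 4.

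**Figure D2:**
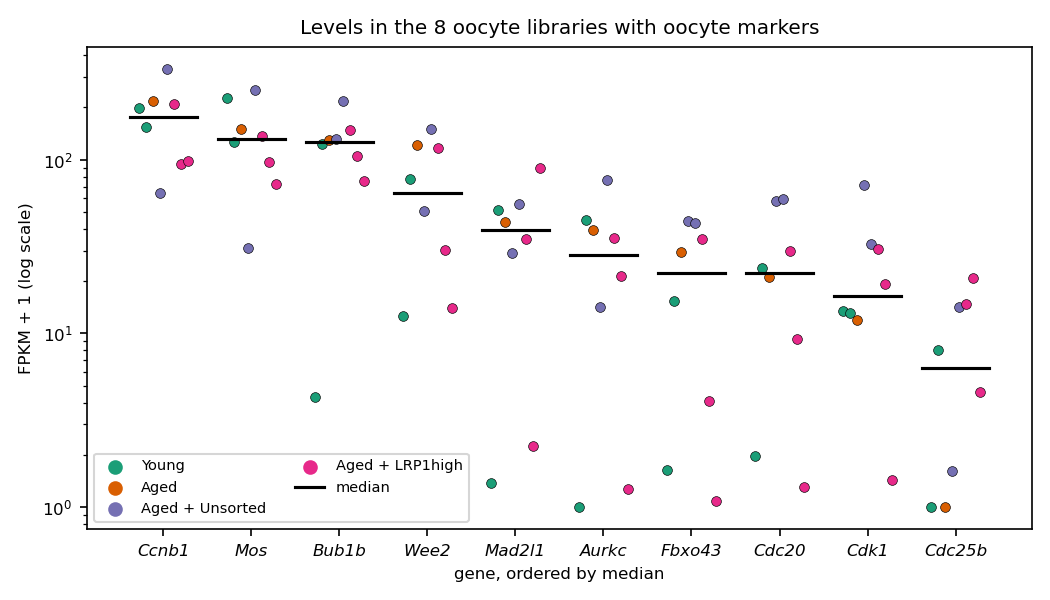
FPKM + 1 on a log scale (vertical axis) of each gene (horizontal axis, ordered by median) in the 8 oocyte libraries with oocyte markers, coloured by group, with black lines at the medians. Ccnb1 and Mos keep within a narrow band above 30, while the 6 genes from Mad2l1 to Cdc25b each have libraries near 1.

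The members were found where oocyte RNA was found. Of 80 values in the 8 oocyte libraries with markers, 76 passed the 95th percentile of the silent receptor genes of their own library and 63 reached an FPKM of 10. Of 40 values in the 4 oocyte libraries without markers, 12 passed it and 1 reached 10, Cdc25b in Aged replicate 1. Of 80 values in the 8 granulosa cell libraries low in oocyte markers, 19 passed it and 3 reached 10, Cdk1 and Cdc20 in Young and Cdk1 in Aged + LRP1high replicate 3. The FPKM summed over the 10 genes was 351 to 1222 in the first set, 17.7 to 53.9 in the second and 2.40 to 62.9 in the third. The granulosa cell library of Aged + Unsorted, at 1025, lay inside the first range. Its 10 values were 0.728 to 0.975 times those of oocyte Aged + Unsorted replicate 2, with no gene outside that band, and its 10 oocyte markers were 0.720 to 0.857 times as high. Against oocyte Aged + LRP1high replicate 1, the next nearest library, the members' ratios ran from 0.758 to 1.95.

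**Figure D3:**
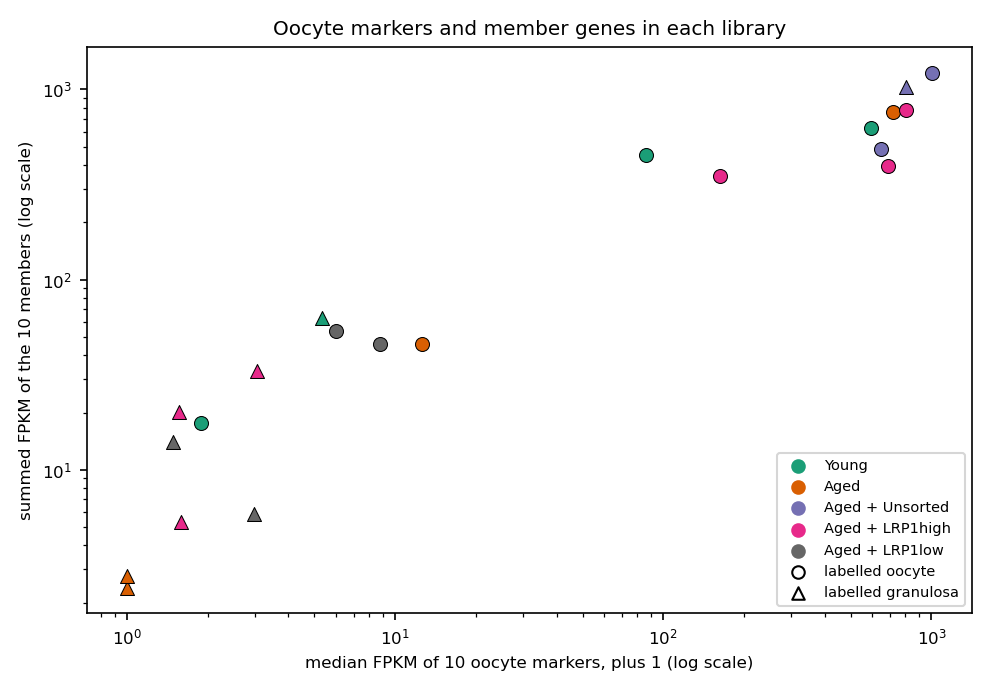
Summed FPKM of the 10 genes (vertical axis, log scale) against the median FPKM of 10 oocyte markers plus 1 (horizontal axis, log scale) for 21 libraries, circles for those labelled oocyte and triangles for granulosa, coloured by group. The 8 oocyte libraries with markers and the Aged + Unsorted triangle lie at the upper right, at sums of 351 to 1222, and the 4 other circles lie among the triangles, at 17.7 to 53.9.

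Oocytes were compared with granulosa cells to see how far the genes belong to the oocyte. In a model of all 21 libraries with the mean taken over the 5 groups, the difference in log2(FPKM + 1) was above 0 for 10 of 10 genes, from 0.64 ± 0.66 (SE) for Cdk1 to 3.04 ± 0.86 for Mos. Genes were called at a fold change over 1.5 on this scale with an adjusted p under 0.05. By limma with Benjamini-Hochberg adjustment over 21767 genes, 1 of the 10 was called, against 3.00% of all genes in either direction and 2.91% higher in oocytes. That gene was Wee2, higher in oocytes by 2.88 ± 0.65 (adjusted p = 0.0314). Bub1b (2.67 ± 0.71, adjusted p = 0.0507), Mos (adjusted p = 0.0635) and Ccnb1 (2.76 ± 0.83, adjusted p = 0.0749) missed the limit, and with Fbxo43 these made 5 genes at an unadjusted p under 0.05, where 21.4% of all genes were. The median difference of the 10 genes was 1.44, beside 0.62 for all genes tested. The call of Wee2 depended on single libraries: no gene was called without oocyte Aged + Unsorted replicate 1 or 2, oocyte Aged + LRP1high replicate 1, oocyte Aged + LRP1low replicate 1 or 2, granulosa cell Aged replicate 1 or 2, granulosa cell Aged + LRP1high replicate 2 or 3, or granulosa cell Aged + LRP1low replicate 1. Without oocyte Young replicate 1, oocyte Aged replicate 1, oocyte Aged replicate 2 or the granulosa cell Aged + Unsorted library, 4 were called. Under quantile normalization, with a trend and robust eBayes, or with the replicate number as a block, 0 were called. With group and number as the block, 4 were. The count over all genes, 654, itself ran from 0 without oocyte Aged + LRP1low replicate 1 or either granulosa cell Aged library to 5330 without oocyte Aged replicate 2.

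Without the 5 libraries whose markers go against their label, a choice made after the data were seen, the mean was taken over Young, Aged and Aged + LRP1high. By limma with the same adjustment, 4 genes were then called among 12705 tested: Ccnb1 (5.75 ± 0.52, adjusted p = 6.21e-05), Mos (6.74 ± 0.60, adjusted p = 5.47e-05), Bub1b (5.12 ± 0.79, adjusted p = 0.00174) and Wee2 (5.06 ± 0.69, adjusted p = 0.000841). Fbxo43 (2.53 ± 0.89, adjusted p = 0.0708), Aurkc (3.23 ± 1.202, adjusted p = 0.0839) and Mad2l1 (2.81 ± 1.15, adjusted p = 0.111) were higher without passing. Cdk1 (1.07 ± 0.89), Cdc20 (1.57 ± 0.90) and Cdc25b (0.99 ± 0.78) differed least, and the first 2 had their highest granulosa values in the Young library, whose 10 markers of proliferating cells were also the highest of the 8, with a median FPKM of 6.48. The part of such cells in these values was not tested. The libraries left out were chosen by oocyte markers that moved with the members, so the gain is no independent support. The share of all genes called in this fit is not given here, so the number of members called cannot be set against it. Over the 8 granulosa cell libraries kept, the median FPKM of granulosa cell markers ran from 0.0482 to 92.6, with a middle value of 0.611. Most of them thus held few markers of their own label.

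**Figure D4:**
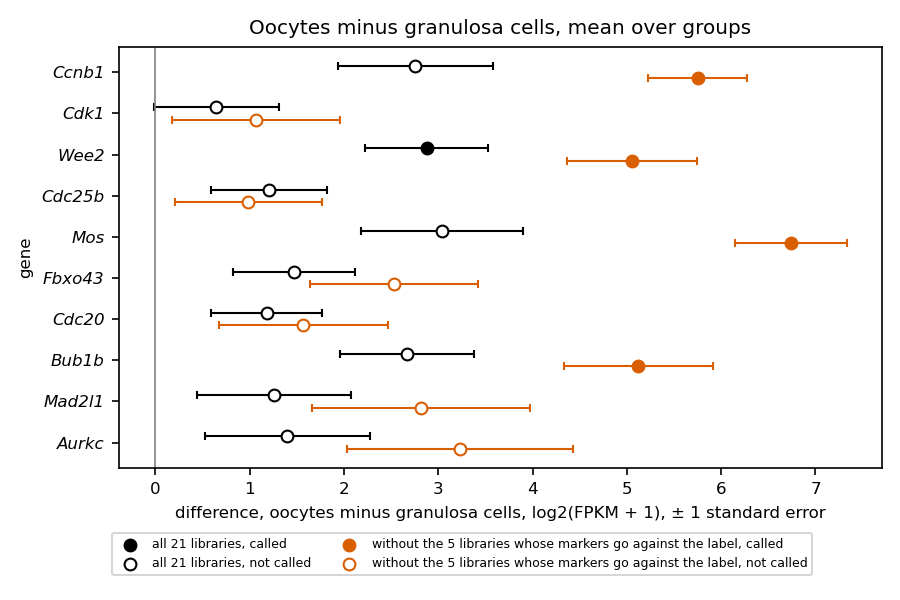
Difference between oocytes and granulosa cells in log2(FPKM + 1) (horizontal axis, ± 1 standard error) for each gene, in all 21 libraries (black) and without the 5 libraries whose markers go against the label (orange), with filled points for called genes. Wee2 is the only filled black point, and Ccnb1, Wee2, Mos and Bub1b are filled in orange, at 5.06 to 6.74.

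Aged oocytes were compared with Young oocytes for an effect of age on these genes. None of the 10 was called by limma, against 0.0964% of 28004 genes, and none had an unadjusted p under 0.05, where 8.65% of all genes did. The differences ran from -0.83 ± 2.03 for Mos to 1.36 ± 1.63 for Bub1b, with a median of 0.60 beside 0.94 for all genes. Under quantile normalization the median of the 10 genes turned to -0.78 while that of all genes was -0.01, and scaled to the 10 oocyte markers it was -0.29. The median was 2.51 without Aged replicate 1 and -1.61 without Aged replicate 2, and the count over all genes, 27, ran from 0 to 9547 with a library left out, highest without Aged replicate 2. No gene separated the 2 groups, which 11.0% of all genes did as higher and 0.646% as lower in Aged, and each group held 1 library poor in oocyte markers, with marker sums of 11.4 and 153 FPKM. Without those libraries, Aged replicate 2 stood alone against Young replicates 2 and 3, with a median of 1.79 over the 10 genes, and no gene was called either, with adjusted p-values by limma of 0.812 to 0.990. In Aged replicate 2 and Young replicate 3, Ccnb1 was 218 and 152, Bub1b 129 and 123, and Mad2l1 43.1 and 50.6.

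Aged + Unsorted was compared with Aged to see what transplantation of unsorted UC-MSCs changed. All 10 differences in log2(FPKM + 1) were above 0, from 0.08 ± 1.53 for Cdc25b to 3.44 ± 1.52 for Cdk1, with a median of 2.09 beside -0.86 for all genes. Scaled to the 10 oocyte markers the median of the 10 genes turned to -1.02. None was called by limma, against 0.00% of 28004 genes, a count that reached 863 without Aged replicate 1 and 10678 without Aged replicate 2. Cdk1 had an unadjusted p of 0.0445 (adjusted p = 0.436 by limma), where 8.74% of all genes had an unadjusted p under 0.05. In 4 genes both Aged + Unsorted libraries were above both Aged libraries: Cdk1 (71.0 and 31.5 against 0.649 and 10.99), Fbxo43, Cdc20 and Bub1b, with 10.3% of all genes so separated in that direction. Of the oocyte markers, 3 of 10 were separated the same way, and their sum was 8121 to 14621 FPKM in Aged + Unsorted against 153 to 9051 in Aged. Of 10 markers of proliferating cells 4 were separated, with sums of 669.6 to 808 against 118 to 564. Over the oocyte libraries these sums ran with the oocyte markers. They were 222 to 808 in the 8 libraries with oocyte markers and 22.4 to 118 in the 4 without. Of 10 granulosa cell markers 3 were separated as higher and 1, Inha, as lower, with sums of 74.6 to 135 against 45.4 to 59.6. Serpine2 alone was 52.6 and 110.0 in Aged + Unsorted, against 11.9 and 39.9 in Aged. Immune markers summed to 0.750 to 5.38 against 42.9 to 43.8, with 1 of 7 separated as lower. In Aged replicate 2, Cd3e alone was 35.8 and 4 of the 7 were listed at 0. In Aged replicate 1, the median immune marker was 2.99, under the 95th percentile of the silent receptor genes, 10.5. The part of these cells in the result was not tested. Without the oocyte libraries low in markers, which here leaves out Aged replicate 1, the median of the 10 genes was 0.13 and the difference of Cdk1 was 2.01 ± 1.93, and 5 of the 10 genes lay above 0. Without Aged replicate 2 alone the median was 4.47.

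Aged + LRP1high was compared with Aged for the effect of the sorted cells with much LRP1. None of the 10 was called by limma, against 0.771% of 28004 genes, and none had an unadjusted p under 0.05, where 10.9% of all genes did. The count over all genes, 216, ran from 0 to 11409 with a library left out, highest without Aged replicate 2. The differences ran from -0.86 ± 1.304 for Cdc20 to 2.18 ± 2.03 for Mos, with a median of 0.97 beside -1.05 for all genes, and no gene separated the groups, which 3.85% of all genes did as higher and 12.4% as lower in Aged + LRP1high. Scaled to the oocyte markers all 10 lay below 0, with a median of -1.39. Without the oocyte libraries low in markers, which here leaves out Aged replicate 1, the median turned to -1.005, and Cdc25b (3.49 ± 1.82) was the only gene above 0. In that fit Mos was at -0.61 ± 1.25 and Wee2 at -1.73 ± 1.62, and no gene was called. Without Aged replicate 2 alone the median was 2.92.

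Both Aged + LRP1low oocyte libraries were low in oocyte markers, so the effect of those cells on oocytes and the scarcity of oocyte RNA in the libraries cannot be told apart. Against Aged, none of the 10 genes was called by limma, against 3.17% of 28004 genes, and none had an unadjusted p under 0.05, where 14.1% did, with differences from -2.90 ± 2.22 for Mos to 0.55 ± 1.53 for Cdc25b and a median of -0.93 beside 0.68 for all genes. The median was -3.23 without Aged replicate 1 and 0.67 without Aged replicate 2, and the count over all genes, 887, ran from 0 to 5251 with a library left out, highest without Aged replicate 1. Bub1b alone was lower in both Aged + LRP1low libraries than in both Aged libraries (3.53 and 3.58 against 4.38 and 129), with 9.55% of all genes so separated. The values 3.53, 3.58 and 4.38 lay under the 95th percentile of the silent receptor genes of their own library (5.52, 6.10 and 10.5). Their order is thus one of values near the background. Scaled to the oocyte markers the median turned to 2.61, with all 10 genes above 0. Against Aged + LRP1low, Aged + LRP1high was higher in 10 of 10 genes, by 0.07 ± 1.304 for Cdc20 up to 5.07 ± 2.03 for Mos, with a median of 1.48 beside -1.89 for all genes. None was called by limma, against 26.0% of 28004 genes in either direction and 1.21% higher in Aged + LRP1high. The count over all genes, 7291, was 0 without any 1 of the Aged + LRP1high libraries or Aged + LRP1low replicate 2, 319 without Aged + LRP1low replicate 1, and 15421 without Aged replicate 2. Bub1b (4.54 ± 1.63, unadjusted p = 0.0177, adjusted p = 0.0572 by limma) and Mos (unadjusted p = 0.0293, adjusted p = 0.0734 by limma) came nearest, where 49.1% of all genes had an unadjusted p under 0.05 and 3.17% were higher with one. Ccnb1, Wee2, Mos and Bub1b were each higher in all 3 Aged + LRP1high libraries than in both Aged + LRP1low libraries, with 6.82% of all genes so separated. All 10 oocyte markers were separated in the same way, with sums of 3507 to 9246 against 53.0 to 166 FPKM. Markers of other cells were lower in every Aged + LRP1high library for 7 of 7 immune genes (sums of 0.0194 to 1.44 against 40.2 to 47.4), 6 of 6 stromal genes (0.289 to 1.25 against 33.4 to 38.8) and 5 of 6 luteal genes. Markers of proliferating cells summed to 222 to 570.0 against 62.2 to 70.9. As noted for Aged + Unsorted, these sums were higher in oocyte libraries with oocyte markers than in those without. In the 2 Aged + LRP1low libraries, 47920 and 38934 genes had an FPKM of at least 1. The 95th percentile of the silent receptor genes was 5.52 and 6.10 there. Median immune (5.50 and 4.73) and luteal (4.47 and 4.37) markers lay under it, and stromal markers (6.04 and 4.30) lay near it. Such values are near the background, and the part of other cells in the result was not tested. Scaled to the oocyte markers, the 10 genes had a median of -4.42 and all lay lower in Aged + LRP1high. Depth differed as well, at 2.29 to 3.15 gigabases against 0.278 and 0.515.

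**Figure D5:**
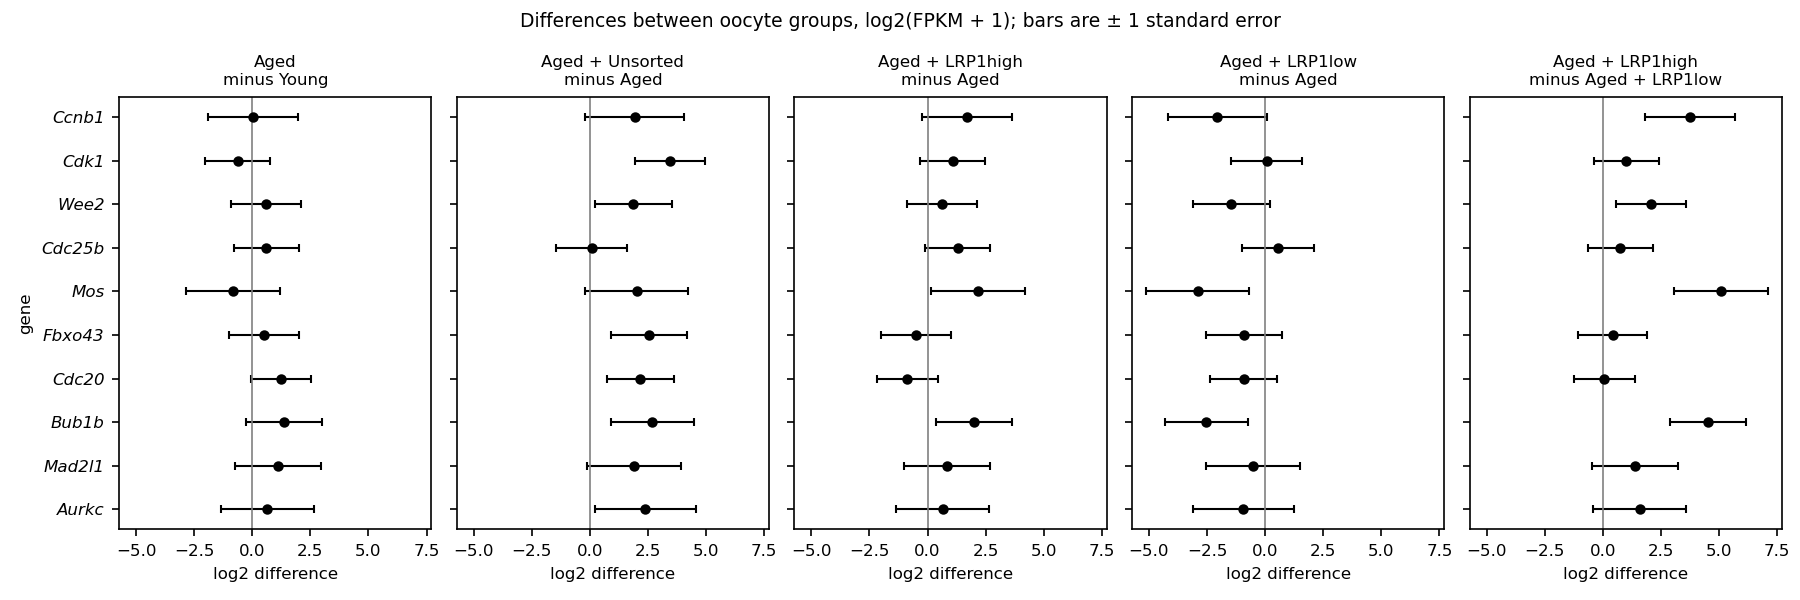
Differences in log2(FPKM + 1) between oocyte groups (horizontal axes, ± 1 standard error) for the 10 genes in the 5 comparisons. In Aged minus Young every bar reaches 0, and the points farthest from it are Mos and Bub1b in Aged + LRP1high minus Aged + LRP1low, at 5.07 and 4.54.

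In granulosa cells all 10 genes passed the filter, an average FPKM of 1 or more across the 9 libraries. Without the library of Aged + Unsorted 6 of the 10 passed, so the other 4 were tested through that library alone. Neither Aged + LRP1high nor Aged + LRP1low differed from Aged in a gene of the set by limma, where 0.00% of 13002 genes were called in each comparison, a count that reached 1 and 766 with a library left out, the latter without Aged + LRP1low replicate 2. The 2 Aged libraries held almost none of these RNAs: 5 and 3 of the genes were listed at 0, and no value exceeded 0.970. Mos, Cdc20 and Bub1b were at 0 in both. No gene of the set had an unadjusted p under 0.05 in Aged + LRP1low, where 3.79% of all genes did. Bub1b, at 3.40, 0.724 and 1.92 in Aged + LRP1high, had an unadjusted p of 0.0398 and an adjusted p of 0.458 by limma, where 8.51% of all genes had an unadjusted p under 0.05. The 95th percentile of the silent receptor genes in these 3 libraries was 3.82, 0.805 and 1.03. Bub1b passed it only in replicate 3. In 7 genes every Aged + LRP1high library was above both Aged libraries, with 50.4% of all genes so separated, and in 3 genes (Ccnb1, Cdk1 and Mad2l1) every Aged + LRP1low library was, with 30.5%. The median differences, 0.86 and 0.30, were close to those of all genes, 0.89 and 0.31. Granulosa cell markers, the label's own, summed to 2.15 and 2.59 FPKM over 10 genes in the Aged libraries against 4.59 to 747 in Aged + LRP1high and 5.74 to 161 in Aged + LRP1low, with 2 of the 10 at 0 in both Aged libraries. Of the oocyte markers 7 of 10 were higher in every Aged + LRP1high library than in both Aged libraries, with sums of 5.46 to 38.02 against 0.681 to 1.18, and 6 of 10 were in Aged + LRP1low, with sums of 19.5 to 41.9. Markers of proliferating cells summed to 3.47 and 3.64 in Aged, 7.65 to 102 in Aged + LRP1high and 16.6 to 129 in Aged + LRP1low, and luteal markers to 0.742 and 2.07, 7.37 to 1789 and 72.7 to 5660. Their part in the result was not tested.

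The change from Aged to a transplanted group was compared between oocytes and granulosa cells by an interaction. For Aged + LRP1high the difference of the differences ran from -1.99 ± 1.61 for Cdc20 to 1.42 ± 1.70 for Cdc25b, and for Aged + LRP1low from -3.28 ± 2.60 for Mos to 0.64 ± 1.86 for Cdc25b. None of the 10 genes was called by limma in either, where 0.00% of 21767 genes were, and none had an unadjusted p under 0.05, where 16.0% and 6.41% of all genes did. Adjusted p-values by limma were 0.442 to 0.968 and 0.900 to 0.974. With a library left out, up to 7800 and 262 of all genes were called, in each case without oocyte Aged replicate 2. For Aged + LRP1high the median over the 10 genes was 0.26, with 6 above 0, and without the 5 libraries that go against their label it was -1.93, with only Cdc25b (3.60 ± 1.81) above 0. It was also -1.93 without oocyte Aged replicate 1 alone and 2.14 without oocyte Aged replicate 2. For Aged + LRP1low the median of -1.46 was -3.55 and -0.06 without these Aged libraries in turn.

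The rest of the pathway was followed in a list of 63 genes: the other cyclins and cofactors and the regulators of M-phase promoting factor, the chain from Mos to MAP kinase, the APC/C with securin and separase, the Aurora kinases with the passenger complex, and the spindle checkpoint with the kinetochore. All 63 were tested in oocytes. None was called in Aged against Young or in any transplanted group against Aged, and 2, 1, 3 and 3 had an unadjusted p under 0.05 in these 4 comparisons, for which 8.65%, 8.74%, 10.9% and 14.1% of all genes did. In Aged + LRP1high against Aged + LRP1low, 3 were called higher and 1 lower, where 1.21% and 24.8% of all genes were, and the median of the list was 0.71 beside -1.89 for all genes. Pttg1, or securin, the inhibitor of separase, differed by 7.65 ± 2.37 (adjusted p = 0.0419 by limma), with an FPKM of 3796, 1346 and 627 against 5.98 and 6.74. Fbxo5 (Emi1), the mitotic relative of Fbxo43 that also inhibits the APC/C, differed by 4.20 ± 1.25 (adjusted p = 0.0384 by limma), with 155, 85.0 and 131 against 4.76 and 6.53. Scaled to oocyte markers the difference of Fbxo5 turned to -1.70 and that of Pttg1 was 1.75 ± 2.90, and under quantile normalization neither was called (adjusted p = 0.0888 for Pttg1 and 0.0758 for Fbxo5 by limma). Between oocytes and granulosa cells 6 of the 63 were called, all higher in oocytes, against 2.91% of all genes in that direction, with a list median of 1.18. Fbxo5 (2.83 ± 0.58, adjusted p = 0.0275) and Ube2s, the enzyme that extends ubiquitin chains for the APC/C (2.77 ± 0.55, adjusted p = 0.0246), had the largest differences by limma, and all 6 were called again without the 5 libraries that go against their label. Under quantile normalization none of the 6 was called, with adjusted p-values by limma of 0.0558 to 0.641, and in Aged + LRP1high alone Fzr1 was not (adjusted p = 0.0571). For the pathway list too, the share of all genes called without the 5 libraries is not given here. In granulosa cells 61 of the 63 passed the limit on FPKM and none was called.

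Likeness to the set was measured over the 12 oocyte libraries as the root mean square difference between a gene's log2(FPKM + 1) and the mean of the 10 genes, each centred on its own mean. Among 4057 other genes averaging an FPKM of 10 or more, the nearest were Dcun1d5 (0.34), Nup35 (0.36), Txndc5 (0.37), Nus1 (0.38) and Cnot6l (0.41), beside a median of 1.41. None of the 5 was in the pathway list or a marker list. Set against the mean of the other 9, Wee2 followed its fellow members most closely, at 0.38, and Cdc25b least, at 2.36. Relative to the mean log2 level of the 10 oocyte markers in the same library, Wee2 also varied least in the 8 libraries with markers, between -4.35 and -2.42 with a median of -2.90, while Mad2l1 varied from -8.09 to -1.31.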

How the data were processed

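RNA sequencing of 12 oocyte and 9 granulosa cell libraries was analysed from the gene abundance tables deposited by the authors, in FPKM and, as an alternative, TPM, made with HISAT2 2.2.1 and StringTie 1.3.3b per the submitters' processing notes. Those notes name mm9, while 54587 of 55335 gene identifiers carry GRCm38 coordinates, which are used here. The labels name a stranded KAPA kit and the study's methods Smart-seq2, and the use of strand in counting is not given in the sources used here. Read counts were not used here, so depth was taken from the coverage StringTie gave in the files deposited by the authors, and no counting interval is given. FPKM of rows that repeat an identifier were summed. Groups follow the labels. Differences in log2(FPKM + 1), which understate changes of low genes, were tested with limma 3.58.1 (R 4.3.3) across all genes averaging an FPKM of 1 or more, in one fit per cell type and one over 21 libraries, with Benjamini-Hochberg adjustment. The fits were tested on simulated data. The members and lists were chosen with earlier results of these data known. Named genes were the 10 members, the 2 largest called differences of the pathway list per comparison, the 5 most alike genes, and relatives or overlapping genes. Alternatives covered pseudocount, filter, unit, scaling, eBayes settings, replicate block and single libraries left out. Leaving out the 5 libraries that go against their label (limit: a median oocyte marker FPKM of 20) was chosen after seeing the data.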

Additional observations from a re-analysis of the deposited data

How the results depend on the processing

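The counts of members called stayed at 0 in Aged against Young, Aged + LRP1high and Aged + LRP1low against Aged in oocytes, Aged + LRP1low against Aged in granulosa cells, and both interactions, under every alternative run. Not every alternative tested all 10 members. At a mean FPKM of at least 10, 9 were tested in oocytes and in the interactions, and 4 in granulosa cells. For granulosa cells of Aged + LRP1low against Aged, 6 were tested without the Aged + Unsorted library and 1 in a fit of only these 2 groups. With unadjusted p, the count was 1 in Aged + Unsorted against Aged (Cdk1), 2 in Aged + LRP1high against Aged + LRP1low (Bub1b and Mos), 1 in granulosa cells of Aged + LRP1high against Aged (Bub1b) and 5 in oocytes against granulosa cells. In Aged + LRP1high against Aged + LRP1low it was also 1 in TPM (Bub1b), 3 in a fit of only these 2 groups (Bub1b, Ccnb1 and Mos) and 0 to 1 with a library left out. In oocytes against granulosa cells, where 1 was reported, it was 3 with a pseudocount of 0.1, 4 with a mean FPKM of at least 10 (9 members tested), 4 in TPM, 4 in Aged + LRP1high alone, 4 without the 5 libraries that go against their label, and 0 to 4 with a library left out. It was 0 with quantile normalization, 0 with a trend and robust eBayes and 0 in Aged alone. Apart from unadjusted p and single libraries left out, the share of all genes called under each alternative is not given here. These counts therefore cannot be read as particular to the members. The cause of the changes in count was not tested.

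Within a cell type the replicate numbers showed no clear pairing: deviations of same-numbered libraries correlated at a median of 0.0101 in oocytes (21 pairs, -0.437 to 0.441) and 0.00911 in granulosa cells (6 pairs, -0.0761 to 0.256). In groups of 2 libraries the deviations mirror each other, so these pairs are not independent and cannot exclude pairing. Pairing of oocyte with granulosa cell libraries of the same number was not checked. With the number as a replicate block, the count in oocytes against granulosa cells was 0, with Wee2 at 2.72 (adjusted p = 0.0666 by limma), and with group and number as the block it was 4. Other counts stayed at 0 under the block.

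Most members changed sign under some scalings, in log2(FPKM + 1). Scaled to oocyte markers, the genes above 0 went from 10 to 0 of 10 in Aged + LRP1high against Aged + LRP1low, from 8 to 0 in Aged + LRP1high against Aged, from 2 to 10 in Aged + LRP1low against Aged, from 10 to 1 in Aged + Unsorted against Aged and from 8 to 3 in Aged against Young. With quantile normalization they went from 8 to 2 in Aged against Young. Of the genes at either end of each comparison, scaled to oocyte markers, Bub1b (-1.37), Cdc20 (-5.83) and Mos (-0.83) turned in Aged + LRP1high against Aged + LRP1low, Mos in Aged + LRP1high (-0.18) and Aged + LRP1low (0.65) against Aged, and Cdc25b in Aged + Unsorted against Aged (-3.03). With quantile normalization, Cdc20 in Aged + LRP1high (0.74), Cdc25b in Aged + LRP1low (-0.89) and Aged + Unsorted (-0.24) against Aged, Bub1b in Aged against Young (-0.31) and Cdk1 in oocytes against granulosa cells (-0.15) turned. Cdc20 in Aged + LRP1high against Aged + LRP1low was -0.35 with a pseudocount of 0.1, Cdc25b in granulosa cells of Aged + LRP1high against Aged was 0.031 in TPM, and Mos in Aged + LRP1high against Aged was -0.61 without the libraries that go against their label. With a library left out, Bub1b (-0.94 to 3.66) and Mos (-3.62 to 1.96) in Aged against Young crossed 0. So did Cdc20 in Aged + LRP1high against Aged + LRP1low (-0.97 to 1.296) and against Aged (-1.90 to 0.36), Mos in Aged + LRP1high against Aged (-0.61 to 4.96), and Cdc25b in Aged + Unsorted (-2.10 to 2.26) and Aged + LRP1low (-1.63 to 2.73) against Aged. Cdc25b also crossed 0 in granulosa cells of Aged + LRP1high against Aged (-0.40 to 0.11) and in the interactions for Aged + LRP1high (-0.76 to 3.60) and Aged + LRP1low (-1.55 to 2.82). No difference of a member between a transplanted group and Aged was called, which does not show that there was none.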
